A study of Mus musculus with 57 samples.

Results

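The 32 genes described here encode the subunits of the nuclear RNA polymerases I, II and III, together with Polr2m, a protein that binds polymerase II, and Polrmt, the RNA polymerase of mitochondria. They were chosen by name alone: protein-coding rows of GENCODE release M21 whose symbol starts with Polr1, Polr2 or Polr3, with Znrd1, Twistnb, Cd3eap and Polrmt added. They are 32 of 59119 rows and of 21918 protein-coding rows in the deposited table. By complex, 6 belong to polymerase I, 2 are shared by polymerases I and III, 7 belong to polymerase II, 1 (Polr2m) is associated with it, 5 are shared by all nuclear polymerases, 10 belong to polymerase III, and Polrmt stands alone.

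Total RNA of mouse oocytes and preimplantation embryos was sequenced in 57 samples that form 18 groups, deposited as 43 columns of FPKM, the fragments per kilobase of transcript scaled to library size. The stage series, in wild type C57BL/6 with 2 columns a stage, ran from MII oocytes through zygotes to 2-cell embryos, sampled early as E2-cell and late as L2-cell, and on to 4-cell and 8-cell embryos, morulae and blastocysts. The time series, in wild type BDF1, held embryos 14, 17 and 20 hours after fertilization, with 2 columns each. Knockout embryos (Late1c_MT2Mm_ko and Early2c_MT2Mm_ko, BDF1) came from MII oocytes injected with Cas9 mRNA at 100 ng/uL and a guide RNA at 150 ng/uL against MT2Mm, the long terminal repeat of the retrovirus MERVL, and were compared with wild type controls of late 1-cell and early 2-cell stage, 3 columns each, with an age label of 6 to 8 weeks for all 4 groups. Knockdown embryos of the long noncoding RNA LncR-3363 (KD-1cell, 4 columns, and KD-2cell, 1 column, BDF1) came from oocytes injected with an antisense oligonucleotide at 20 uM, against 4 columns of wild type Ctrl, whose stage is not stated. No injection is listed for either kind of control. MT2Mm has many copies in the genome, injected embryos were pooled, and how far they were edited is not given. The protocol gives about 150 to 200 embryos per sample for TruSeq libraries and no number for those of small input, and nothing in the labels says that replicates came from separate collections, so p-values measure the spread between these samples, which may be technical.

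The nuclear RNA polymerases divide the genome between them: polymerase I makes ribosomal RNA, polymerase II makes messenger RNA and many noncoding RNAs, and polymerase III makes transfer RNA and other short RNAs. A catalytic core of a pair of large subunits is completed by small subunits, some of which all of the enzymes use, and by stalk and initiation modules particular to each. The oocyte is transcriptionally silent at the MII stage, and the mouse embryo starts its own transcription in a minor wave in the zygote and a major wave at the late 2-cell stage, so early embryos depend on polymerase RNA and protein left by the oocyte.

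Depth is unknown, since the table gives no counts. Between 10704 and 12892 rows reached 1 FPKM in a sample, FPKM sums ran from 311543 to 720832, small and ribosomal RNA took 17.983% to 73.448% of a sum, and log2 levels of replicates correlated at 0.973 to 0.995. The stage markers mostly fitted the labels: the sum of 4 oocyte markers was 1610 to 2830 FPKM in zygotes and 4.05 to 4.95 in blastocysts, and 5 blastocyst markers summed to 1460 to 1570 in blastocysts. The libraries labelled KD-1cell went against their label, with 93.9 to 113 FPKM over 3 markers of the 2-cell embryo, against 85.2 to 108 in Ctrl, while Late1c libraries of the MT2Mm experiment had 1.33 to 3.33 over the same markers. KD-1cell is used here as their label. Of 9 cumulus and granulosa cell markers the sum stayed between 0.0918 and 1.01 FPKM in all groups but 20 hours, where it was 2.99 to 3.81, and 5 sperm and testis markers summed to 0 to 8.14. No row of the table is tied by name to LncR-3363 or MT2Mm, so the levels of the targets were not checked here.

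Across the stages, the summed polymerase subunit mRNA fell from the oocyte to the E2-cell embryo, where it was lowest. Most genes were highest at some later stage. Levels in the oocyte were uneven, from Polr3g, with 0.992 and 0.721 FPKM at MII, to Polr2d, with 230 and 216. Summed over the 32 genes, the level was 837 ± 74.4 FPKM in MII, 577 ± 72.1 in zygotes, 360 ± 15.0 in E2-cell, 763 ± 32.9 in L2-cell, 1060 ± 2.48 in 4-cell, 1130 ± 15.2 in 8-cell, 1020 ± 2.80 in morula and 737 ± 4.18 in blastocyst samples (SD, n = 2 each). With the FPKM of protein-coding genes scaled to sum to 1000000, a measure that the amount of small RNA does not touch, the sum was 1970 in E2-cell embryos, the lowest of the stages, and 5460 in 4-cell embryos, the highest. The E2-cell stage gave the lowest mean of 16 of the 32 genes. The highest mean fell at MII for 4 genes, in zygotes for 1, in E2-cell embryos for 2, in L2-cell for 3, in 4-cell for 6, in 8-cell for 9, in morulae for 3 and in blastocysts for 4, and after median-of-ratios scaling the 8-cell stage led with 11. In pooled embryos, fewer cells that hold an mRNA and less of it per cell cannot be told apart, and FPKM gives shares of a library, not amounts per embryo.

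**Figure D1:**
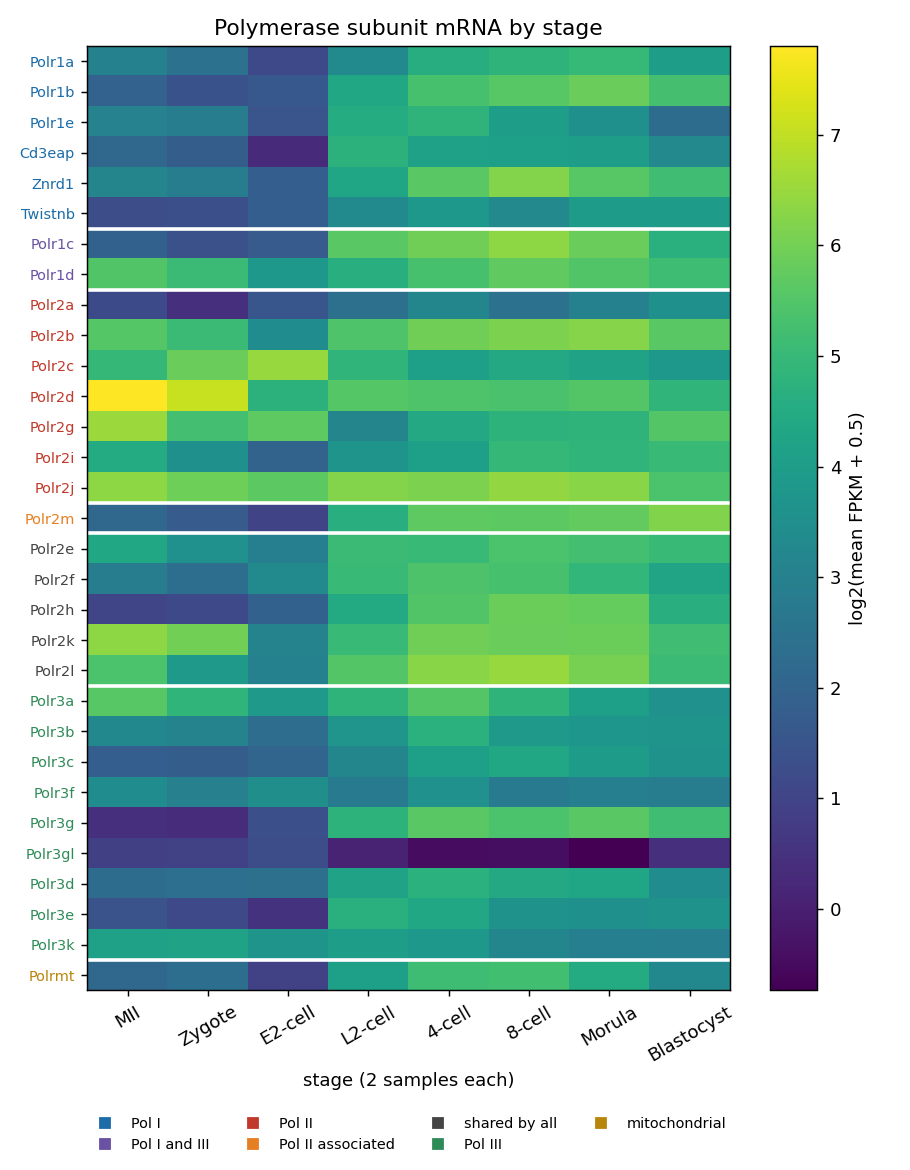
Mean level of each subunit mRNA (rows, coloured by complex) at the 8 stages (columns, 2 samples each), as log2(mean FPKM + 0.5). With 1 polymerase III gene not drawn, Polr3g and Polrmt turn bright from the L2-cell column on, Polr2d is brightest at MII, and Polr3gl is darkest in the morula.

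The genes differed widely in how far they moved. Polr3f, of the initiation module of polymerase III, varied least, with a highest stage mean 1.87 times its lowest, followed by Polr2j, an assembly subunit of polymerase II, at 2.09 times. Polr3g, also of the initiation module of polymerase III, varied most at 64.0 times, followed by Polr2m at 47.4, Polr1c, shared by polymerases I and III, at 38.9 and Polr2h, shared by all enzymes, at 37.3 times. Polymerase II stood apart in its sum: the 7 subunits came to 496 FPKM at MII, 233 at E2-cell, 218 at L2-cell and 279 at the 8-cell stage, whereas the 6 polymerase I subunits came to 32.7, 13.4, 108 and 190 FPKM at the same stages. With protein-coding FPKM scaled as above, polymerase II came to 1280 ± 45.1 at E2-cell and 1430 ± 202 at L2-cell (SD, n = 2 each). Its lower sum at L2-cell than at E2-cell was therefore seen in FPKM only. Polymerase I came to 73.6 and 710 on that scale, a rise as in FPKM. These sums are descriptions and carry no test.

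Between the MII oocyte and the zygote the comparison covers fertilization, and few subunits changed beyond the replicate spread. In zygotes 3 of 32 genes fell and 0 rose in limma, with 16 at an unadjusted p under 0.05, and over all rows tested 3.76% were called, 1.73% higher and 2.03% lower. Polr2l, shared by all enzymes, had 6.74 and 21.3 FPKM in zygotes, against 46.9 and 35.9 in oocytes (log2 change -1.73, limma adjusted p = 0.032). Polr2i, the zinc ribbon subunit of polymerase II, fell by 0.96 on the log2 scale, and Polr2e, shared by all enzymes, fell by 0.77. The zygote samples lay below the oocyte samples for these 3 genes, but the calls rest on single libraries: Polr2l was lost without MII replicate 1 or 2, Polr2i without MII replicate 1 or zygote replicate 1, and Polr2e without MII replicate 2. The zygote replicates correlated least of the stages, at 0.973, and Polr2g, a stalk subunit of polymerase II, had 15.5 and 60.0 FPKM in zygotes, against 104 and 79.7 in oocytes (log2 change -1.56, adjusted p = 0.076). Without zygote replicate 2 the count of called members was 19, and without MII replicate 1 it was 1. MII replicate 1 and zygote replicate 2 share a tag in the table's column names. A fit that kept only these samples of the compared stages took its spread from the other stages. Its calls therefore have no replicate check.

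At the early 2-cell stage most subunit mRNAs fell, across all complexes, while a few rose. In E2-cell embryos 17 of 32 genes fell and 6 rose (8 higher and 16 lower after scaling by the median of ratios), against 44.1% of all rows called, 17.9% higher and 26.2% lower, and the median change was -0.57 among the members and -0.01 among all rows. Polr2k, shared by all enzymes, had 6.95 and 8.81 FPKM in E2-cell embryos, against 73.8 and 52.1 in zygotes (log2 change -2.91, 95% interval -3.3 to -2.51, adjusted p = 3e-07). Polr2d, the partner of Polr2g in the stalk of polymerase II, had 25.4 and 27.7 FPKM in E2-cell embryos, against 96.4 and 174 in zygotes (log2 change -2.27, adjusted p = 9e-06). For both genes the E2-cell samples lay far below the zygote samples, with no overlap.

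The falls reached each complex. In polymerase I, Cd3eap, which forms a heterodimer with Polr1e, had 0.655 and 0.777 FPKM in E2-cell embryos, against 2.41 and 3.4 in zygotes (log2 change -1.47, adjusted p = 1.4e-05), and the catalytic subunit Polr1a, Polr1e and Znrd1, the zinc ribbon subunit, fell as well, by 1.06 to 1.3. Polr1d, shared by polymerases I and III, fell by 1.25. In polymerase II, the second largest subunit Polr2b had 9.51 and 11.1 FPKM in E2-cell embryos, against 33.8 and 32.5 in zygotes (log2 change -1.64, adjusted p = 1e-06), and Polr2i fell by 1.56. The polymerase III calls were smaller, with Polr3a, the catalytic subunit, falling by 0.97 and Polr3b, Polr3e and Polr3k by 0.52 to 0.74. Polrmt had 1.61 and 1.14 FPKM in E2-cell embryos, against 4.57 and 4.7 in zygotes (log2 change -1.46, adjusted p = 3.3e-05).

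The 6 genes that rose were Polr2f and Polr2h, shared by all enzymes, Polr2a, the catalytic subunit of polymerase II, Polr3g, Polr2c and Twistnb, the stalk subunit of polymerase I. Polr3g had 2.13 and 1.99 FPKM in E2-cell embryos, against 0.635 and 0.891 in zygotes (log2 change 1.02, adjusted p = 6.4e-05), and Polr2a had 1.8 and 3.01 FPKM, against 0.83 and 0.895 in zygotes (log2 change 1.06, adjusted p = 0.0058). The samples of the stages did not overlap for either gene. The calls of Twistnb (0.45), Polr2c (0.71) and Polr2f (1.34) were each lost when 1 of 3 of the 4 libraries was left out, Polr2f and Twistnb without zygote replicate 1 and Polr2c without zygote replicate 2 among them, while all 3 were lost without E2-cell replicate 1 and again without replicate 2. Polr2a was lost without E2-cell replicate 2, Polr2m without E2-cell replicate 1, and Polr3k without E2-cell replicate 2. Both E2-cell columns and zygote replicate 1 share a tag. Keeping only these in the compared stages gives the same fit as that without zygote replicate 2. It is therefore no separate check of the tag.

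The late 2-cell stage, that of major genome activation, brought the largest changes of these genes among the comparisons made, nearly all upward. In L2-cell embryos 27 of 32 genes rose and 4 fell, against 68.7% of all rows called, 31.1% higher and 37.6% lower, and the median change was 1.85 among the members and -0.1 among all rows. All 6 polymerase I subunits rose, with a median of 2.62, as did both genes shared by polymerases I and III, all 5 shared subunits, Polr2m and Polrmt. Of the 7 polymerase II subunits 4 rose and 2 fell, with a median of 0.8, and of the 10 polymerase III subunits 8 rose and 2 fell.

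Cd3eap changed most, with 26.2 and 26.7 FPKM in L2-cell embryos, against 0.655 and 0.777 in E2-cell embryos (log2 change 4.47, 95% interval 4.14 to 4.8, adjusted p = 1.2e-09). Polr3e, the partner of Polr3d in a heterodimer of polymerase III, had 26.1 and 24.3 FPKM in L2-cell embryos, against 0.793 and 1.07 in E2-cell embryos (log2 change 4.17, adjusted p = 6.8e-10). Polr1c had 45.5 and 51.9 FPKM in L2-cell embryos, against 3.16 and 2.43 in E2-cell embryos (log2 change 3.91, adjusted p = 4.2e-09). For these genes both L2-cell samples stood far above both E2-cell samples. Polr2m, also called Gdown1, had 26.8 and 21.7 FPKM, against 1.37 and 1.7 in E2-cell embryos (log2 change 3.6), and Polrmt had 18.5 and 14.2 FPKM, against 1.61 and 1.14 in E2-cell embryos (log2 change 3.17). Among the shared subunits the rises ran from 1.72 for Polr2f to 2.58 for Polr2h, and of the catalytic subunits Polr1a rose by 2.15, Polr3a by 0.95 and Polr2a by 0.88.

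The 4 genes that fell at this step were Polr2g, Polr2c, Polr3gl and Polr3f. Polr2g had 8.16 and 8.62 FPKM in L2-cell embryos, against 55.2 and 47.6 in E2-cell embryos (log2 change -2.54, adjusted p = 0.00032). Polr2c, which joins Polr2j in the assembly platform of polymerase II, had 26.5 and 30.6 FPKM in L2-cell embryos, against 98.1 and 81.2 in E2-cell embryos (log2 change -1.63, adjusted p = 0.00011). The groups did not overlap for either gene. Polr2c shares 9708 bases with Dok4 on the opposite strand, and whether the counting used the strand is not stated, so their reads may not be fully separated. Polr2j was not called, with 57.8 and 89.1 FPKM in L2-cell embryos, against 48.3 and 50.4 in E2-cell embryos (log2 change 0.54, adjusted p = 0.053).

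Of the late 2-cell calls, that of Polr3f (-0.78, adjusted p = 0.049) was lost in each of the 4 fits without a library, that of Polr3k (0.32) without E2-cell replicate 2 or L2-cell replicate 2, that of Polr2a without E2-cell replicate 1 or L2-cell replicate 1, that of Polr2d without L2-cell replicate 2 and that of Polr2f without L2-cell replicate 1. The FPKM sum was 64.576% and 73.448% small and ribosomal RNA in L2-cell samples, against 51.848% and 52.607% in E2-cell samples, and its part in the result was not tested. All E2-cell columns carry 1 tag and all L2-cell columns another, so the stage and the tag cannot be told apart at this step.

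**Figure D2:**
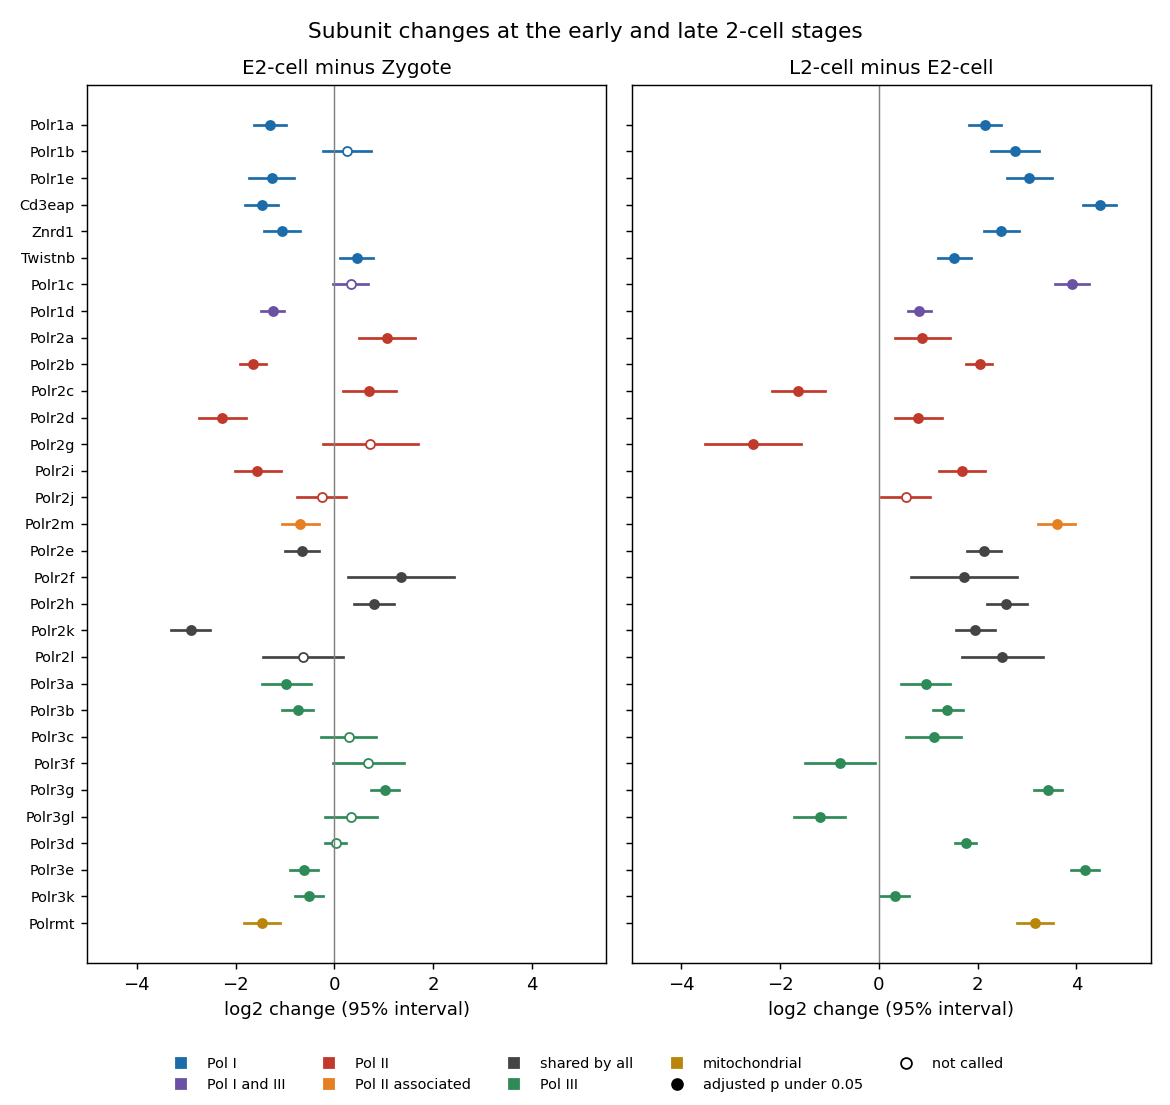
Log2 change of each subunit mRNA (points, with 95% intervals) in E2-cell embryos over zygotes (left) and in L2-cell embryos over E2-cell embryos (right), 2 samples a stage, coloured by complex and filled where the adjusted p is under 0.05. Most genes lie left of 0 in the left panel, with Polr2k lowest at -2.91, and right of 0 in the right panel, with Cd3eap highest at 4.47, and 1 polymerase III gene that the counts include is not drawn.

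Promoter windows from RefSeq (GRCm38.p6), from 250 bases before to 50 after the start of the gene, were matched by symbol for 26 of the 32 members. Their median GC content was 59.3%, against 52.7% over the windows of all 27025 genes, and they held a median of 22.5 CpG dinucleotides, against 7 over all. Counted on both strands and whether or not matches overlapped, the ETS factor motif CCGGAAG occurred in 9 of 26 member windows (34.6%) and in 9.1% of all windows, CCAAT in 7 (26.9%) and in 37.9% of all, TATAAA in 3 (11.5%) and in 14.2% of all, the NRF1 core CGCATGC in 3 (11.5%) and in 3.6% of all, and TAATCC, the motif of bicoid-type homeodomains, in 6 (23.1%) and in 7.2% of all. The share of a GC-rich motif moves with GC content, which was higher among the members. Windows of a member that rose strongly at the late 2-cell stage, Polr1c (chr17:46247996-46248295, minus strand, 69.7% GC, 40 CpG), and of a member that fell, Polr2c (chr8:94857200-94857499, plus strand, 50% GC, 18 CpG), are printed as examples. Both hold the ETS motif, and windows of members that rose were not compared with those of members that fell. Capitals mark the ETS motif in Polr1c, which begins 42 bases before the start of the gene. In Polr2c they mark matches of CCAAT, of TATAAA between them, 151 bases before the start, and of the ETS motif after the start. These are matches of letters, and whether they act as promoter elements was not tested.
Polr1c: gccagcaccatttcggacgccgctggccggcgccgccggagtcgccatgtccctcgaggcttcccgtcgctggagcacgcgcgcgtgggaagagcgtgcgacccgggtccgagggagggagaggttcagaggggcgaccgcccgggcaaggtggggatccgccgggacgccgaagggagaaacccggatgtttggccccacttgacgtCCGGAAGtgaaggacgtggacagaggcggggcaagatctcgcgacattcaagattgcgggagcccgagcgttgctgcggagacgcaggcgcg
Polr2c: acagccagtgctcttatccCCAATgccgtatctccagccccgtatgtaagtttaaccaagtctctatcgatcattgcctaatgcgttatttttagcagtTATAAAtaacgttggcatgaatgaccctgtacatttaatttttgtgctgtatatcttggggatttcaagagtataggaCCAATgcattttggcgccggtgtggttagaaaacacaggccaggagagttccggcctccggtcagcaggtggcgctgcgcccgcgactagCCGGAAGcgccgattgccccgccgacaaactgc

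The factors that work with each polymerase moved with unequal breadth at the 2-cell steps. Of all rows tested, 31.1% were called higher and 37.6% lower in L2-cell embryos. The lists of TFIID and of the polymerase II tail came near the first of these shares. Of 8 polymerase I factors, 7 rose and 0 fell in L2-cell embryos (median 1.72, against -0.1 over all rows), led by Ubtf, the upstream binding factor of ribosomal genes, at 41.7 ± 1.13 FPKM in L2-cell embryos and 1.45 ± 0.355 in E2-cell embryos (SD, n = 2 each, log2 change 4.45), and by Taf1c (3.8) and Ttf1 (3.51). Of 18 polymerase III factors, 13 rose and 1 fell (median 1.24), led by Gtf3c4 (4.11), Snapc2 (3.78) and Gtf3c5 (3.72). Of 21 general factors of polymerase II, 10 rose and 3 fell (median 0.62), and the 2 largest changes were falls. Tbpl2, the oocyte form of the TATA-binding protein, was at 0.448 FPKM in L2-cell embryos and 7.52 in E2-cell embryos (-3.09), and Gtf2b at 7.35 FPKM in L2-cell embryos and 59.1 in E2-cell embryos (-2.92). Of 24 pausing and elongation factors 12 rose and 4 fell (median 0.54), with Cdk9, the kinase of P-TEFb, at 3.07. Of 15 TFIID subunits 5 rose and 4 fell (median 0.01), of 11 enzymes and binders of the polymerase II tail 4 rose and 3 fell (median 0), of 11 assembly and import factors 5 rose and 2 fell, or 5 and 4 after scaling (median 0.26, with Gpn3 at 4.57 and Ruvbl1 at 3.57), and of 8 mitochondrial transcription genes 4 rose and 3 fell (median 0.11, with Tefm at 3.09).

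At the step before, in E2-cell embryos, the general factors of polymerase II fell widely, with 14 of 21 lower and 2 higher (median -0.91, against -0.01 over all rows), Gtf2a1l, a germ cell form of TFIIA, at -2.72 and Gtf2h5 at -1.9. Of all rows tested, 17.9% were called higher and 26.2% lower at this step. Of the polymerase I factors 1 rose and 2 fell, and those were Taf1b (-2.62) and Taf1a (-1.98), subunits of the selectivity factor. Hexim1, the inhibitor of P-TEFb, averaged 5.55 FPKM in E2-cell embryos and 0.017 FPKM in zygotes (log2 change 3.55). Polymerase III factors were 4 higher and 4 lower, or 6 and 3 after scaling by the median of ratios, assembly factors 1 and 5, or 3 and 4, and TFIID subunits 4 and 2, or 5 and 1. Mitochondrial transcription genes were 1 higher and 5 lower, or 2 and 5 after scaling, pausing factors 4 and 3, and tail enzymes 3 and 1.

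In 4-cell embryos 18 of 32 genes rose and 3 fell, or 14 and 6 after scaling by the median of ratios, against 56.3% of all rows called, 30.2% higher and 26.2% lower, with a median of 0.61 among members and 0 among all rows. Znrd1 had 49.8 and 46.9 FPKM in 4-cell embryos, against 20.7 and 17.7 in L2-cell embryos (log2 change 1.31, adjusted p = 4.9e-05), Polr1a had 23.5 and 23.9 FPKM, against 10.8 and 8.22 in L2-cell embryos (1.29), and Polrmt had 35.9 and 34.9 FPKM, against 18.5 and 14.2 in L2-cell embryos (1.1). The groups did not overlap for these genes. Polr2m had 49.5 and 52.9 FPKM in 4-cell embryos, against 26.8 and 21.7 in L2-cell embryos (log2 change 1.07, adjusted p = 0.00028). Polr2h had 43.7 and 45 FPKM in 4-cell embryos, against 21.3 and 22.1 in L2-cell embryos (log2 change 1.01, adjusted p = 0.00071). Polr3b, the second largest subunit of polymerase III, had 25.7 and 25.9 FPKM in 4-cell embryos, against 13 and 12.3 in L2-cell embryos (log2 change 1, adjusted p = 0.00012). The groups were again apart, and these 3 calls held in every fit that left out a library. Polr1d rose by 0.68, and the call of Polr2g (1.25) was lost in each such fit. Polr2c (-0.78) and Cd3eap (-0.6) were among those that fell, Polr2c losing its call without L2-cell replicate 2 or either 4-cell replicate and Cd3eap without 4-cell replicate 3. Of the 21 calls 13 held when each library was left out in turn. Columns from the 4-cell stage on have merge in their names and those of L2-cell embryos have not, so stage and handling cannot be told apart at this step either.

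At the 8-cell stage 5 of the 7 members that fell were polymerase III subunits. In 8-cell embryos 3 members rose and 7 fell, or 5 and 5 after scaling, against 35% of all rows called, 13.4% higher and 21.6% lower. The shares of members called, 10 of 32, and lower, 7 of 32, are near those of all rows. Those lower were Polr3a, Polr3b, Polr3d, Polr3e and Polr3k with Polr1e and Twistnb, and those higher were Znrd1, Polr1d and Polr2i. Polr3b had 15 and 13.9 FPKM in 8-cell embryos, against 25.7 and 25.9 in 4-cell embryos (log2 change -0.82, adjusted p = 0.0012), and Polr3e had 12.1 and 11.5 FPKM, against 20.7 and 19.7 in 4-cell embryos (-0.75, adjusted p = 0.0012). Of these 10 calls 3, those of Polr3b, Polr3e and Polr3k, held when each library was left out. In morulae 1 member rose and 4 fell, against 20.9% of all rows called, 8.39% higher and 12.5% lower, and none of those 5 calls held in every such fit: Twistnb (0.66) was lost without 8-cell replicate 2 or morula replicate 2, Znrd1 (-0.61) without 8-cell replicate 2 or either morula replicate, and Polr1c (-0.52), Polr3a (-0.73) and Polrmt (-0.7) without any of the 4 libraries.

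In blastocysts 13 of 32 genes fell and 1 rose, against 38.7% of all rows called, 22.4% higher and 16.3% lower, with a median of -0.42 among members and 0 among all rows. Polrmt had 8.18 and 9.68 FPKM in blastocysts, against 22.7 and 22.5 in morulae (log2 change -1.3, adjusted p = 8e-05). Polr1e had 4.52 and 4.31 FPKM in blastocysts, against 10.6 and 11.6 in morulae (log2 change -1.23, adjusted p = 0.00061). Polr1c fell by 1.17, Polr2h by 1.16 and Polr1a by 0.93. For these 5 genes the blastocyst samples lay below both morula samples. Of the 8 polymerase I factors 6 fell and 0 rose at this step (median -1.07, against 0 over all rows). Polr2m had its highest mean here, 66 and 79.6 FPKM in blastocysts, against 53.1 and 52.5 in morulae, which did not pass the test (0.45, adjusted p = 0.056). The calls of Polr2d, Polr1d and Polr3g were lost in each of the 4 fits without a library, and that of Polr2k without morula replicate 2 or blastocyst replicate 1.

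Polr3g and Polr3gl encode alternative forms of the same subunit of the polymerase III initiation module, and in human cells the first is known from pluripotent and tumour cells and the second from most adult tissues. In these embryos their levels parted at the late 2-cell stage. Polr3g had 0.992 and 0.721 FPKM at MII, 0.635 and 0.891 in zygotes, 2.13 and 1.99 in E2-cell, 26.4 and 27.5 in L2-cell, 48.3 and 49.3 in 4-cell, 40.9 and 40.9 in 8-cell, 48.3 and 48 in morula and 35.3 and 35.9 in blastocyst samples. Polr3gl had 1.09 and 1.61 FPKM at MII, 1.2 and 1.61 in zygotes, 2.04 and 1.78 in E2-cell, 0.687 and 0.426 in L2-cell, 0.368 and 0.108 in 4-cell, 0.31 and 0.197 in 8-cell, 0 and 0.2 in morula and 0.987 and 0.769 in blastocyst samples. In both MII and both zygote samples Polr3gl lay above Polr3g, in E2-cell samples their ranges overlapped, and from the L2-cell stage on Polr3g was far above Polr3gl in every sample.

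In L2-cell embryos Polr3g rose by 3.42 (adjusted p = 2.3e-09) and Polr3gl fell by 1.2 (adjusted p = 0.00085). In the blastocyst Polr3gl was the only member that rose (log2 change 1.22, adjusted p = 0.0016), to levels still under 1 FPKM. The log2 ratio of Polr3g to Polr3gl within a library, which no scaling of the library moves except through the added 0.5 FPKM, was -0.44 at MII, -0.59 in zygotes, 0.09 in E2-cell, 4.71 in L2-cell, 6.08 in 4-cell, 5.78 in 8-cell, 6.36 in morula and 4.72 in blastocyst samples. In the other experiments group means of this ratio lay between -0.9 and 0.51. The promoter windows of the pair are printed because the genes went opposite ways: Polr3g (chr13:81710964-81711263, minus strand, 69.7% GC, 26 CpG) and Polr3gl (chr3:96594132-96594431, minus strand, 59.3% GC, 16 CpG), from RefSeq, GRCm38.p6. Capitals mark the ETS motif on the other strand in Polr3g, and a pair of CCAAT matches, the first on the other strand, in Polr3gl.
Polr3g: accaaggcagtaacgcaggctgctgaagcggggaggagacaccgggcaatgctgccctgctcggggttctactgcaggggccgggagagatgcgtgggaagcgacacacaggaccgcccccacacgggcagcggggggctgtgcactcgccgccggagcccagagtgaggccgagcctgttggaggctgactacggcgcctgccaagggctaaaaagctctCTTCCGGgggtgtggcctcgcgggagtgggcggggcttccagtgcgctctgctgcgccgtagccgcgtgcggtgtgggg
Polr3gl: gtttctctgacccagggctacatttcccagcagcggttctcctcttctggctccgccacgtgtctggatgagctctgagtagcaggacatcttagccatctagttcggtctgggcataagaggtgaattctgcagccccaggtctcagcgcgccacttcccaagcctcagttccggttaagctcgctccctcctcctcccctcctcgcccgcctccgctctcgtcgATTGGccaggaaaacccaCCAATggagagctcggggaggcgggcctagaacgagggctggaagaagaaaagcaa

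**Figure D3:**
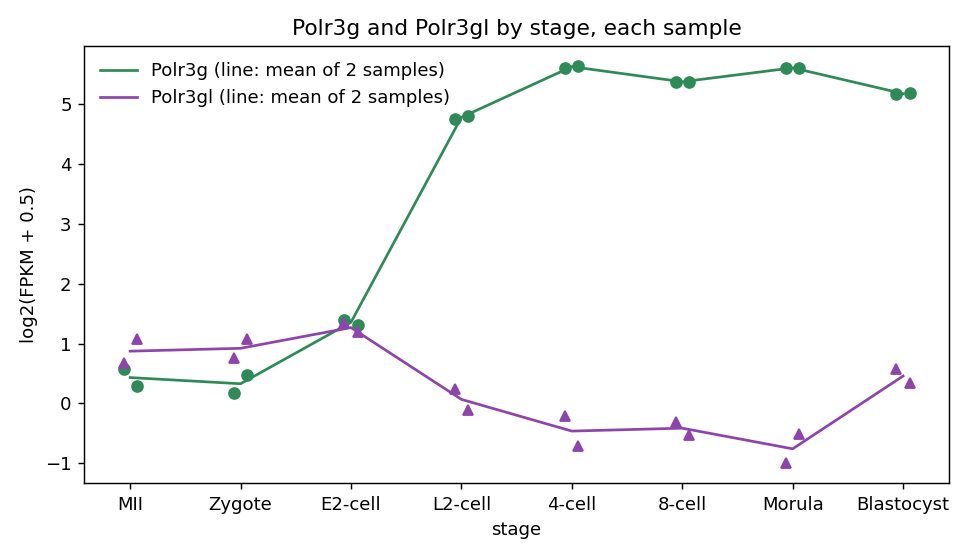
Level of Polr3g (circles) and Polr3gl (triangles) in each sample of the 8 stages, as log2(FPKM + 0.5), with lines through the means of 2 samples. Up to the E2-cell stage the means of the genes differ by at most 0.59 on the log2 scale, and from the L2-cell stage on they lie 4.71 to 6.36 apart.

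The time series covered embryos between 14 and 20 hours after fertilization, and changes of the subunits were small. At 17 hours 5 of 31 tested members were higher and 6 lower than at 14 hours, against 37% of all rows called, 20.5% higher and 16.5% lower. The largest were Twistnb, with 2.18 and 1.91 FPKM at 17 hours, against 1.43 and 1.42 at 14 hours (log2 change 0.41, adjusted p = 0.022), and Polr3f, with 9.42 and 9.91 FPKM, against 7.73 and 6.6 at 14 hours (0.41, adjusted p = 0.01). None of the 11 calls held when each library was left out, and without replicate 2 of 17 hours 1 call was left. At 20 hours 3 members were higher and 6 lower than at 17 hours, against 19.6% of all rows called, 5.13% higher and 14.5% lower. Polr2k had 15.1 and 17.7 FPKM at 20 hours, against 23.6 and 23.5 at 17 hours (log2 change -0.51, adjusted p = 0.0081), and Polr2d had 75.1 and 80.2 FPKM, against 109 and 100 at 17 hours (-0.43, adjusted p = 0.0055). These were the 2 calls that held in every such fit, and they concern the genes that fell most in E2-cell embryos of the stage series. Polr2a was not tested, being at 0.249 to 0.389 FPKM in these samples. Columns of 17 hours end in cat and those of 14 and 20 hours in merge, so that any difference in their handling cannot be told apart from time. The 9 cumulus and granulosa markers summed to 2.99 to 3.81 FPKM at 20 hours, against 0.662 to 0.711 at 17 hours, and 5 blastocyst markers to 6.58 to 8.63 FPKM, against 0.491 to 0.612 at 17 hours, and their part in the second interval was not tested.

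The controls of the MT2Mm experiment give a second view of the passage to the 2-cell stage, in another strain. In control embryos 9 of 32 members were higher and 19 lower at Early2c than at Late1c, against 79.2% of all rows called, 33.5% higher and 45.7% lower, with a median of -0.53 among members and -0.15 among all rows. After scaling by the median of ratios 10 were higher and 17 lower. Polr2k had 1.2, 0.803 and 1.41 FPKM in Early2c controls, against 16.3, 12.4 and 15.8 in Late1c controls (log2 change -3.24, adjusted p = 8.2e-10). Polr2a had 17.2, 22.5 and 16 FPKM in Early2c controls, against 5.46, 6.85 and 6.51 in Late1c controls (log2 change 1.48, adjusted p = 1.9e-07). The groups stood far apart for both genes. This step shares no sample with that from zygote to E2-cell, and of the members called in the 2 steps 16 fell in both, which is 94.1% of the 17 in the stage series and 84.2% of the 19 in the controls, and 6 rose in both, which is 100% of 6 and 66.7% of 9. Over the 12606 rows tested in both, the shares were 88.2% and 55% for falls and 83% and 58.9% for rises. No member was called in opposite directions.

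Knockout of MT2Mm gave no called subunit at the late 1-cell stage, while at the early 2-cell stage many subunits were above control. At Late1c limma called 0 of 32 members, with 3 at an unadjusted p under 0.05, against 0.114% of all rows called, 0.0455% higher and 0.0683% lower. At Early2c 15 members were higher and 2 lower in knockout embryos, against 49% of all rows called, 33.4% higher and 15.6% lower, with a median of 0.23 among members and 0.11 among all rows. After scaling by the median of ratios 12 were higher and 3 lower. The share of members called, 17 of 32, is near that of all rows.

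Polr2d had 19.5, 17 and 21.1 FPKM in Early2c knockout embryos, against 7.52, 7.46 and 6.77 in Early2c controls (log2 change 1.34, 95% interval 1.15 to 1.53, adjusted p = 4.5e-07). Polr2k had 3.07, 3.26 and 3.87 FPKM in Early2c knockout embryos, against 1.2, 0.803 and 1.41 in controls (log2 change 1.27, adjusted p = 1.9e-05). Znrd1 had 2.44, 1.99 and 2.59 FPKM in Early2c knockout embryos, against 1.05, 0.929 and 0.732 in controls (log2 change 1.02, adjusted p = 8.6e-05). In all 3 genes each knockout sample lay above each control sample. Polr1d, Cd3eap, Polr3a and Polr1e rose by 0.83 to 0.9, Polr2b by 0.77 and Polrmt by 0.71. Polr3a had 14.4, 14.7 and 15.9 FPKM in Early2c knockout embryos, against 9.38, 7.41 and 7.07 in controls.

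The 2 members that fell were Polr2a and Polr2c. Polr2a had 12, 12.4 and 13.4 FPKM in Early2c knockout embryos, against 17.2, 22.5 and 16 in controls (log2 change -0.53, adjusted p = 0.003), and Polr2c had 65.8, 61.9 and 60.3 FPKM, against 75.4, 75.1 and 75.7 in controls (-0.27, adjusted p = 0.0019). The knockout samples lay below the control samples for both. Polr3g, with 2.29, 3.55 and 3.09 FPKM in Early2c knockout embryos, against 2.73, 3.67 and 3.06 in controls, was not called (-0.08, 95% interval -0.4 to 0.24).

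The knockout effect was tested for a difference between the stages: the effect at Early2c exceeded that at Late1c for 11 members and was below it for 2, Polr2a and Polr2c, against 37.3% of all rows called, 25.7% higher and 11.6% lower. After scaling by the median of ratios these counts were 8 and 2. The share of members called, 13 of 32, is near that of all rows. The members that differed most were Polr2k (1.48), Znrd1 (1.32), Polr2d (1.23) and Polr1d (1.06). The knockout comparison at Early2c and the step in controls share the Early2c control embryos. Any error in those controls moves the 2 changes in opposite directions, so their values are only set side by side. For Polr2d they were 1.34 in knockout over control and -3.03 in the control step, and for Polr2k 1.27 and -3.24. The values were 1.02 and -2.01 for Znrd1, 0.9 and -1.94 for Polr1d, and -0.53 and 1.48 for Polr2a. Polr1c was called higher in both, averaging 1.8 FPKM in Early2c knockout embryos, 1.29 in Early2c controls and 0.908 in Late1c controls. Its call in the control step was lost without Early2c control replicate 1 or Late1c control replicate 3. At Late1c, where no member was called, Polr2d had 66.6, 72.6 and 63.7 FPKM in knockout embryos and 67.4, 56.8 and 64.4 in controls. At Early2c the calls of Polr1c and Polr3f were each lost in 4 of 6 fits that left out a library, Polr1c without control replicate 2 or 3 or knockout replicate 1 or 3, Polr3f without control replicate 1 or 2 or knockout replicate 1 or 2. Beside these results, the sum of 4 oocyte markers was 455 to 528 FPKM in Early2c knockout embryos and 407 to 459 in controls, with 2 called higher and 0 lower (median 0.32, against 0.11 over all rows). The sum of 3 markers of the 2-cell embryo was 125 to 134 FPKM in knockout embryos and 155 to 168 in controls, with 0 called higher and 1 lower. Small and ribosomal RNA took 56.252% to 57.464% of the FPKM sum in knockout embryos and 61.108% to 63.281% in controls. Their part in the result was not tested.

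**Figure D4:**
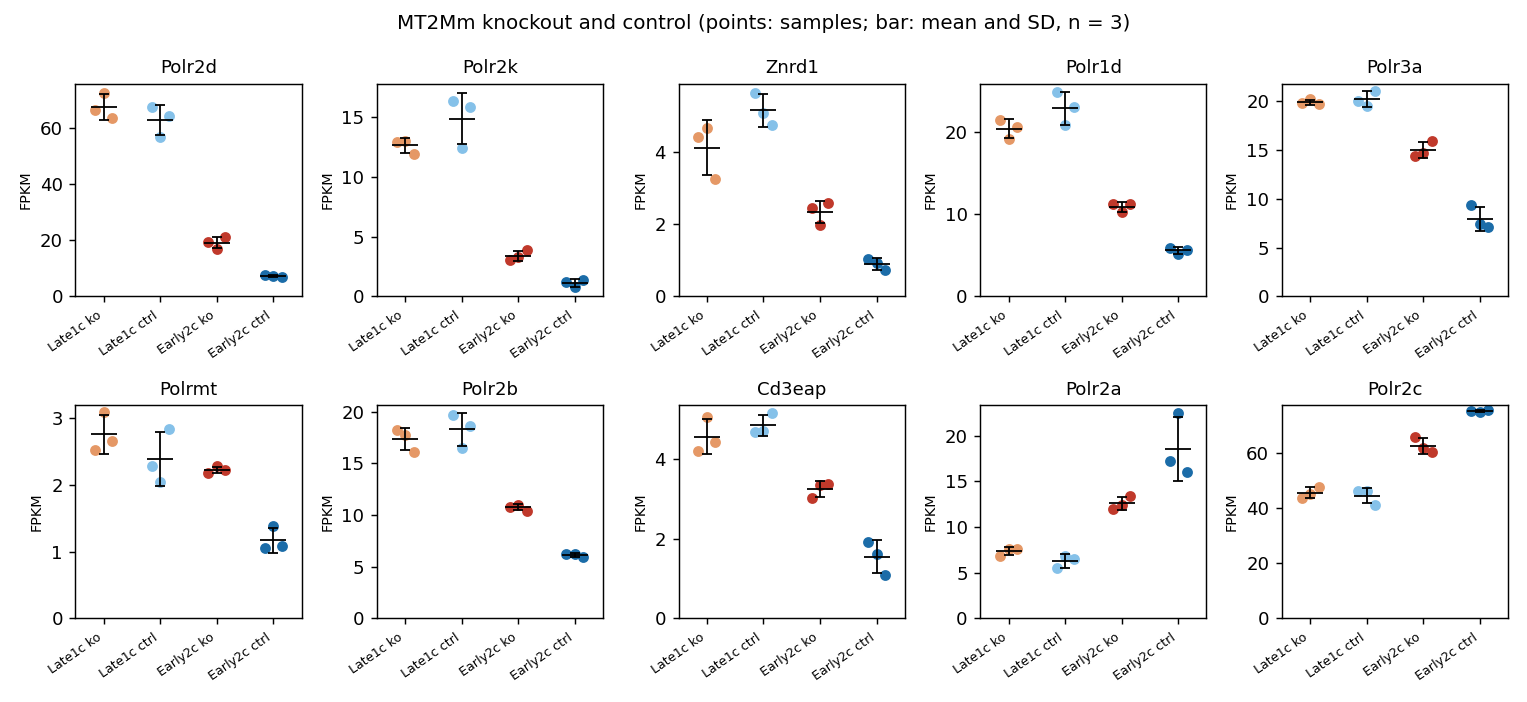
FPKM of 10 subunit mRNAs in each sample of the MT2Mm experiment (points), with mean and SD of 3 samples (bars), in knockout and control embryos at Late1c and Early2c. Polr2d, Polr2k and Znrd1 are low in Early2c controls and higher in Early2c knockout embryos, and Polr2a and Polr2c show the opposite order.

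Among the partner factors, the general factors of polymerase II were higher in Early2c knockout embryos for 14 of 20 tested and lower for 2 (median 0.53, against 0.11 over all rows), or 12 and 4 after scaling by the median of ratios, led by Gtf2h2 (1.02), Gtf2f2 (0.99) and Mnat1 (0.94). Of 17 tested polymerase III factors 8 rose and 1 fell, or 7 and 4 after scaling, with Brf2, a TFIIB-related initiation factor, at 9.47 ± 0.361 FPKM in knockout embryos and 3.42 ± 0.293 in controls (SD, n = 3 each, log2 change 1.35), and Ssb, the La protein that binds new polymerase III transcripts, at 1.15. Of all rows tested, 33.4% were called higher and 15.6% lower in this comparison. Of 6 polymerase I factors 2 rose, Taf1a and Taf1b (1.28 each), and 2 fell. Pausing and elongation factors were 13 higher and 1 lower of 24, or 5 and 3 after scaling. TFIID subunits were 4 higher and 3 lower of 15, or 3 and 7 after scaling, and tail enzymes 2 and 1 of 11, or 1 and 4, so the balance of both lists turned with the scaling. Mitochondrial transcription genes rose in 3 of 6, with Tfb1m at 1.12, and 0 fell, or 2 after scaling, and assembly factors rose in 4 of 10.

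In the LncR-3363 experiment Polr2d, Polr2k, Cd3eap, Polr1d and Znrd1 were higher and Polr1e, Polr2a and Polr3g lower in KD-1cell embryos. In the single KD-2cell sample Polr2d, Polr2k and Cd3eap lay within the range of Ctrl. Polr1e, Polr3g and Znrd1 lay within that of KD-1cell, and Polr1d and Polr2a lay between the groups. The stage of Ctrl is not stated, so stage and knockdown cannot be told apart. In KD-1cell embryos 12 of 31 tested members rose and 6 fell, or 7 and 8 after scaling by the median of ratios, against 43.7% of all rows called, 29.8% higher and 13.9% lower, with a median of 0.18 among members and 0.12 among all rows. The share of members called, 18 of 31, is only a little above that of all rows. Polr3e was not tested.

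Polr2d had 41.3, 31.4, 43.3 and 50.4 FPKM in KD-1cell embryos, against 14.1, 14.6, 15 and 14.1 in Ctrl (log2 change 1.47, 95% interval 1.19 to 1.75, adjusted p = 1.7e-05). Cd3eap had 5.08, 4.62, 7.05 and 5.8 FPKM in KD-1cell embryos, against 1.39, 1.92, 1.49 and 2.59 in Ctrl (log2 change 1.4, adjusted p = 0.00024). Polr1d had 19.9, 17.5, 18.4 and 16.6 FPKM in KD-1cell embryos, against 8, 9.09, 8.15 and 8.13 in Ctrl (log2 change 1.07, adjusted p = 6.6e-06). No KD-1cell sample of these 3 genes reached down to the control range. Polr2k rose by 1.26, Znrd1 by 0.71, Polrmt by 0.7, Polr2m by 0.54 and Polr3d by 0.47, the last with 15.4 to 23.6 FPKM in KD-1cell embryos, against 11.8 to 14.4 in Ctrl. Without the filter the calls of Znrd1 (adjusted p = 0.06) and Polr3d (adjusted p = 0.069) were lost, and that of Polr3d also after scaling (adjusted p = 0.082).

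Among those that fell, Polr1e had 0.454, 0.272, 0.532 and 0.764 FPKM in KD-1cell embryos, against 1.62, 2.05, 2.21 and 1.78 in Ctrl (log2 change -1.28, adjusted p = 0.00039). Polr2a had 6.4, 7.11, 6.77 and 5.15 FPKM in KD-1cell embryos, against 10.8, 10.4, 11.4 and 10.8 in Ctrl (log2 change -0.74, adjusted p = 0.00031). Polr3g had 1.65, 1.82, 2.27 and 1.55 FPKM in KD-1cell embryos, against 2.48, 3.1, 3.2 and 2.5 in Ctrl (log2 change -0.52, adjusted p = 0.013). In each case all 4 KD-1cell samples lay below all 4 controls. Polr1e is the partner of Cd3eap in the polymerase I heterodimer, and the 2 genes moved in opposite directions here, whereas in Early2c MT2Mm knockout embryos both rose. The experiments were not tested against each other. Polr1e shares 2319 bases with Fbxo10 and Cd3eap 511 bases with Ercc1, each on the opposite strand. Whether the counting used the strand is not stated, so reads of these genes may not be fully separated. Polr2j (-0.35), Polr2f (-0.29) and Polr2c (-0.22) fell by less, Polr2f losing its call without Ctrl replicate 1 or 2 or knockdown replicate 2, and Polr2j without Ctrl replicate 1 or 3 or knockdown replicate 3. The calls of Polr2g, Polr3a and Polr3b, all under 0.35, were lost in 6 of the 8 fits that left out a library. Small and ribosomal RNA took 45.134% to 50.014% of the FPKM sum in KD-1cell samples and 50.975% to 56.538% in Ctrl. The 4 oocyte markers summed to 462 to 590 FPKM in KD-1cell samples and 437 to 507 FPKM in Ctrl, and 3 of them were called higher and 0 lower (median 0.7, against 0.12 over all rows). The part of either in the result was not tested.

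**Figure D5:**
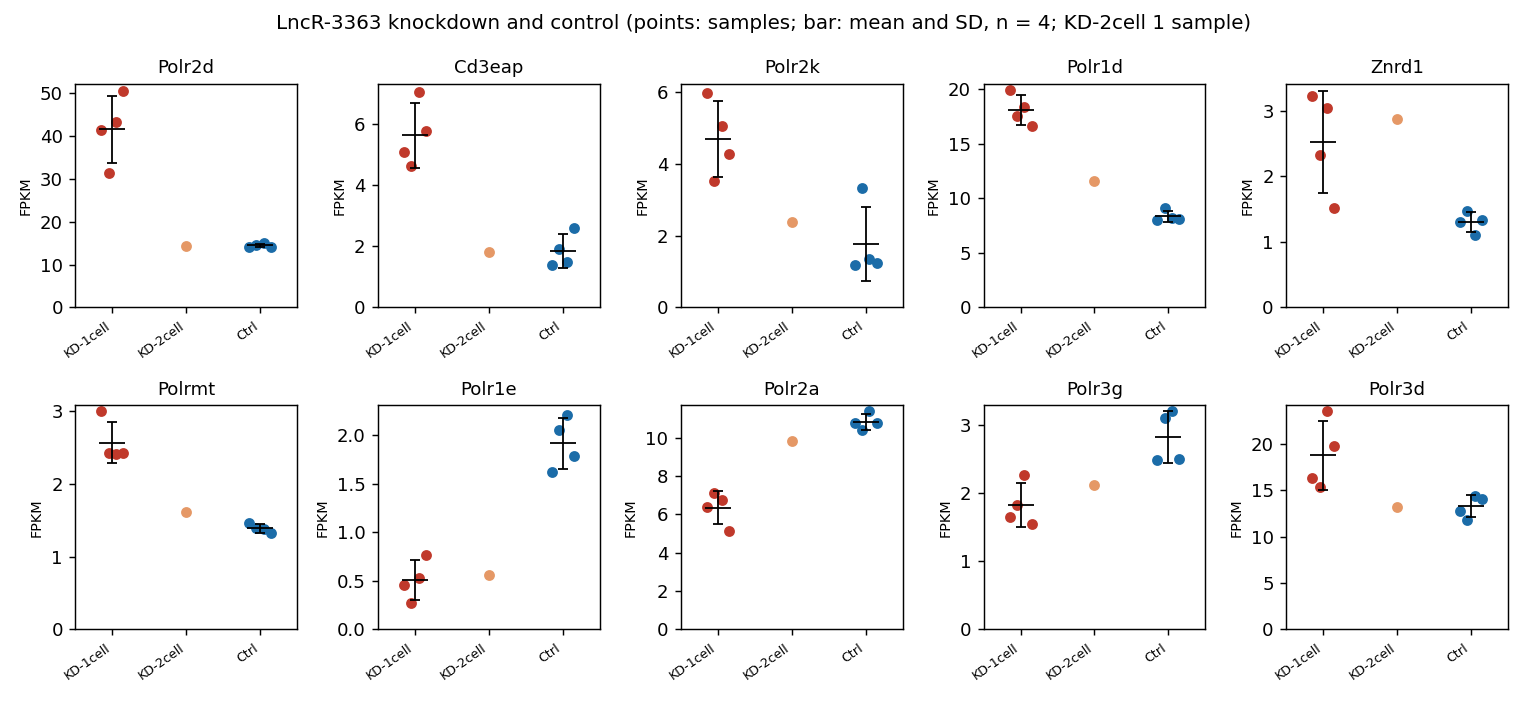
FPKM of 10 subunit mRNAs in each sample of the LncR-3363 experiment (points), with mean and SD of 4 samples (bars) for KD-1cell and Ctrl and the single KD-2cell sample between them. Polr2d, Cd3eap and Polr1d lie above Ctrl and Polr1e, Polr2a and Polr3g below it in KD-1cell, without overlap.

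Of the partner lists in KD-1cell embryos, general factors of polymerase II were higher for 9 of 20 tested (median 0.36, against 0.12 over all rows, of which 29.8% were called higher and 13.9% lower) and lower for 1, Gtf2a1, the large subunit of TFIIA, at 23 ± 0.912 FPKM in KD-1cell and 86.9 ± 3.69 in Ctrl embryos (SD, n = 4 each, log2 change -1.89). Of 14 polymerase III factors 4 rose and 3 fell (median 0.06), with Ssb at 1.7 and Brf2 at -1.98, 1.78 ± 0.299 FPKM in KD-1cell and 8.46 ± 0.776 in Ctrl embryos. Brf2 was lower in these embryos and higher in the MT2Mm knockout. Of 6 polymerase I factors 3 rose, Taf1b by 1.13 and Taf1a by 1.1, and 0 fell (median 0.18). Pausing and elongation factors (median 0.22) were 11 higher and 2 lower of 23, or 9 and 5 after scaling by the median of ratios, TFIID subunits (-0.04) 4 and 3 of 15, or 4 and 5, and tail enzymes (0.03) 2 and 1 of 10, or 0 and 3. Assembly factors were 5 higher and 0 lower of 9 (median 0.38), and mitochondrial transcription genes 3 and 1 of 5 (median 0.66).

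Levels of the catalytic subunit of polymerase II differed between the experiments at neighbouring stages. Polr2a lay between 0.83 and 11.4 FPKM in the stage series, between 0.249 and 0.389 FPKM in the time series, at 10.4 to 11.4 FPKM in Ctrl and at 16 to 22.5 FPKM in Early2c controls. The early embryos that come nearest in stage, the zygotes (0.83 and 0.895), the 14 to 20 hour embryos and the Late1c controls (5.46 to 6.85), came from separate sets of libraries, and the labels do not give the library kit of a sample. The zygotes were C57BL/6 and the other embryos BDF1, so against the zygotes strain, stage and library cannot be told apart. The 14 to 20 hour embryos and the Late1c controls share the strain label, and between them stage and library cannot be told apart.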

How the data were processed

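Total RNA went into stranded libraries of the TruSeq kit or the SMARTer v2 kit, per the labels' protocols, without a record of the kit behind each sample. The authors deposited FPKM in a table of 59119 rows, and the submitters' processing notes name cutadapt 1.18, HISAT2 2.1.0, Cufflinks, StringTie 1.3.4d, Cuffdiff 2.2.1 and build GRCm38 without their roles. Whether the counting used the strand is not stated. The 57 samples are held in 43 columns, with 0 columns left unused and 0 pairs of identical columns. The knockdown columns are named lnc2, not LncR-3363, and were linked to that experiment by their words for control and knockdown and by their numbers. FPKM did not resolve into whole reads, so depth is unknown and no counting interval is given.

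Of 54446 Ensembl rows 54409 were annotated with GENCODE M21. Rows were tested where 1 FPKM was reached in at least as many columns as the smallest group holds, using log2(FPKM + 0.5) and limma 3.58.1 (lmFit, eBayes with trend) in R 4.3.3, with p-values adjusted over all rows by Benjamini-Hochberg and a call at an adjusted p under 0.05. A fold on this scale understates changes of low genes. The 8 stages, the 3 times, KD-1cell with Ctrl, and the 4 MT2Mm groups each formed 1 fit. The single KD-2cell column entered none. Members were counted over the calls of the whole table, and no set test or p over the members was made. The values of 1 polymerase III member, which the counts and sums include, are not reported here. The code was tested on simulated data with planted changes of 1.5 on the log2 scale. The stage fit, for zygote minus MII, recovered 76% of them, and 10.59% of its calls were false. The fits of times, knockdown and MT2Mm recovered 98%, 98.5% and 99%, with 4.39%, 7.94% and 4.81% of calls false. Tables and figures used Python 3.11.15, pandas 2.3.3 and Matplotlib 3.10.9.

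Each fit was repeated with pseudocounts of 0.1 and 1 FPKM, without the filter, after median-of-ratios scaling, with a block for replicate number (without the 4-cell columns), and without each replicate in turn. For zygote minus MII and E2-cell minus zygote, a fit kept only the samples of a shared column tag in the compared stages. All other stages stayed whole in it. Members and the 8 partner and 5 marker lists were chosen with earlier results of these data known. The rule for naming was the called members with the largest change in each complex and up to 3 called genes of a partner list. Some of these are given by their change or count alone. In fits that leave 1 sample in a group, that sample is assumed to vary like the rest.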

Additional observations from a re-analysis of the deposited data

Results flagged for a closer look

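Of 64 groups of 4 samples in the knockdown experiment, 4 held a sample that stood apart from the other 3 by Dixon's test at 95%, where chance alone would give about 5% of groups. Polrmt reached 3 FPKM in a KD-1cell sample, with the others at 2.42 to 2.43, and Polr2l was at 1.85 FPKM in a KD-1cell sample, with the others at 3.07 to 3.28. Polr1d was at 9.09 FPKM in a Ctrl sample, with the others at 8 to 8.15, and Polr2k at 3.32 FPKM in a Ctrl sample, with the others at 1.19 to 1.34. Without that Ctrl sample the call of Polr2k stayed.

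For 13 of 32 members the effect of the MT2Mm knockout at Early2c differed from that at Late1c in limma's test of the interaction. Of all rows tested, 37.3% were called, so the share of members is near that of all rows. The difference on the log2 scale was positive for Polr2k (1.48), Znrd1 (1.32), Polr2d (1.23), Polr1d (1.06), Cd3eap (0.98), Polr3a (0.9), Polr2b (0.84), Polr1e (0.81), Polrmt (0.53), Polr2e (0.5) and Polr3b (0.49). It was negative for Polr2a (-0.74) and Polr2c (-0.3). The difference of Polr2e lost its call without Late1c control replicate 1 or 3, that of Polrmt without Early2c control replicate 1, Late1c control replicate 3 or Late1c knockout replicate 1 or 3, and that of Polr3b after scaling by the median of ratios.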

How the results depend on the processing

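None of the 203 calls of members over the comparisons changed direction under any alternative run. Of these calls 135 were kept in every fit that left out a replicate and 128 in every alternative. Leaving out a replicate moved the count of members called between 1 and 19 for zygote minus MII (3 in the full fit), 17 and 24 for E2-cell minus zygote (23), 28 and 29 for L2-cell minus E2-cell (31), 15 and 18 for 4-cell minus L2-cell (21), 4 and 6 for 8-cell minus 4-cell (10), 0 and 2 for morula minus 8-cell (5), 10 and 11 for blastocyst minus morula (14), 1 and 7 for 17 minus 14 hours (11), 2 and 4 for 20 minus 17 hours (9), 14 and 17 for KD-1cell minus Ctrl (18), 0 and 0 for the knockout at Late1c (0), 15 and 17 at Early2c (17), 26 and 29 for the control step (28) and 11 and 16 for the interaction (13). Other counts that moved were zygote minus MII (5 with a pseudocount of 1 FPKM, 0 with the replicate block), morula minus 8-cell (3 without a filter, 2 with the block), 17 minus 14 hours (0 without a filter) and 20 minus 17 hours (3 without a filter), and the cause was not tested. With a pseudocount of 0.1 FPKM the log2 ratio of Polr3g to Polr3gl was 5.39 in L2-cell and 5.2 in blastocyst samples. Scaling by the median of ratios shifted the log2 change of rows by a median of -0.119 for L2-cell minus E2-cell, -0.178 for 4-cell minus L2-cell, 0.103 for 8-cell minus 4-cell, -0.172 for blastocyst minus morula, -0.119 for the knockdown, -0.13 for the knockout at Early2c, 0.171 for the control step and -0.149 for the interaction.

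Replicate numbers did not pair the samples: correlations of same-numbered residuals ran from -0.138 to 0.153. With the replicate block the other counts were 21 for E2-cell minus zygote, 29 for L2-cell minus E2-cell, 13 for blastocyst minus morula, 8 and 7 for the times, 15 for the knockdown, and 0, 17, 28 and 15 for the MT2Mm comparisons. The 4-cell columns carry numbers 3 and 4, so no block was possible there. No read depths are given, so limits for low members such as Polr3gl cannot be set.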

Other observations

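The single KD-2cell sample entered no comparison. It had 14.3 FPKM of Polr2d and 1.81 FPKM of Cd3eap, both within the range of Ctrl, and 2.38 FPKM of Polr2k, between the Ctrl sample at 3.32 and the other 3 (1.19 to 1.34). Its Polr2a level, 9.84 FPKM, lay between the KD-1cell samples (5.15 to 7.11) and Ctrl (10.4 to 11.4). Its Polr3g level, 2.12 FPKM, lay within the range of KD-1cell (1.55 to 2.27). It had 11.6 FPKM of Polr1d, between the KD-1cell samples (16.6 to 19.9) and Ctrl (8 to 9.09). It had 0.554 FPKM of Polr1e, within the range of the KD-1cell samples (0.272 to 0.764), and 2.87 FPKM of Znrd1, also within their range (1.52 to 3.23). With 1 sample, these differences have no replicate check.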
